A study of Mus musculus with 4 samples.

Results

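The clade B serpins described here are 9 genes (Serpinb2, Serpinb3a, Serpinb3b, Serpinb3c, Serpinb3d, Serpinb5, Serpinb6c, Serpinb8 and Serpinb12) of the 56493 genes in the deposited count table, taken by gene name with no rule on their measured values. They were compared in dorsal epidermis, lifted from the dermis with 3.8% sodium thiocyanate for 20 min in every library, between 2 libraries of mice in which Stim1 and Stim2 were deleted by a K14-Cre transgene (cKO) and 2 libraries of Stim1/2fl/fl mice (control). Both groups carry the floxed alleles, and the keratin 14 promoter limits the deletion to keratin 14-expressing epithelium. STIM1 and STIM2 sense the calcium content of the endoplasmic reticulum and open calcium channels at the cell surface when that store is emptied. Age, sex and strain are not given in the labels, which name replicates but do not say that each came from its own mouse, so p-values measure only the spread between these libraries.

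Serpins are protease inhibitors that present a flexible loop near the carboxyl end, the reactive-centre loop, as bait. A protease that cuts the loop is carried across the serpin and trapped. Clade B members lack a classical signal peptide, and most act inside cells, where they hold lysosomal and granule proteases in check. In stratified epithelium several of them are made by differentiating keratinocytes, some are crosslinked into the cornified envelope, and the squamous cell carcinoma antigens (Serpinb3 group) are known for inhibiting cathepsins. The gene ontology terms in the table name serine-type endopeptidase inhibition for all 9 members and for all 19 other clade B serpins listed. Cysteine-type endopeptidase inhibition is named for 4 members, Serpinb3a, Serpinb3b, Serpinb3c and Serpinb3d, and for 1 of the 19 others. The cornified envelope is named for Serpinb2, Serpinb5 and Serpinb12 and for 0 of the 19 others.

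The Serpinb3 copies are shown first, because their likeness sets how far reads can be divided between them. Each line is the last 180 coding bases, stop codon included, of the GENCODE M21 transcript with the longest coding region. The reactive-centre loop is encoded close to this end. Capitals mark bases that differ from Serpinb3a in a pairwise alignment of the whole coding regions.
Serpinb3a: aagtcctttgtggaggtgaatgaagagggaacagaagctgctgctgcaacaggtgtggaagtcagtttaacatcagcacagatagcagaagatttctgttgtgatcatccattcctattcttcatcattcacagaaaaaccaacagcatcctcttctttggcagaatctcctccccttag
Serpinb3b: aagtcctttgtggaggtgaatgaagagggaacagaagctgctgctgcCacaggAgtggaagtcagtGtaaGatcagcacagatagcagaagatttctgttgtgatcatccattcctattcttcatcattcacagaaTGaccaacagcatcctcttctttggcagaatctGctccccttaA
Serpinb3c: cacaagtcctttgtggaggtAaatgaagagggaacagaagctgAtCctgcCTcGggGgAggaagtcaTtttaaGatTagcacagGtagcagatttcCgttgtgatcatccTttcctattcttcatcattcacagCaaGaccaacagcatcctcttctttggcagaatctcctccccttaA
Serpinb3d: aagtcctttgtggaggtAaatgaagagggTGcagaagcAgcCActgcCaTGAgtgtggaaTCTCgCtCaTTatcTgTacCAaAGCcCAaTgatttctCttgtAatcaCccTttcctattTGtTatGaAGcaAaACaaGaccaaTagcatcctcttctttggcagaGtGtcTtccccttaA
Over this stretch Serpinb3b differs from Serpinb3a at 8 bases, Serpinb3c at 17 and Serpinb3d at 47. The whole alignment of Serpinb3c with Serpinb3a has 1164 columns, of which 1161 hold a base in both. The bases that Serpinb3c lacks fall within this stretch, carry no mark and are not counted in the 17. Its line therefore starts further upstream than the others. In Serpinb3d the differing bases were 10 in the first, 23 in the middle and 14 in the last 60 bases of the stretch.

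Over the whole coding region the 4 copies were 86.3% (Serpinb3c with Serpinb3d) to 93.1% (Serpinb3b with Serpinb3c) identical. Among the other pairs of members the most alike were Serpinb6c and Serpinb8 at 64.7%, and the least alike were Serpinb5 and Serpinb12 at 50.5%. Serpinb6c has its nearest relative outside the members, Serpinb6b, at 86.6%. The libraries were made with a 3' kit, so the last 500 bases of each transcript were also searched for windows found exactly in transcripts of another gene. Of the windows of 100 bases, 0 were shared for any of the 9 members. Of the windows of 50 bases, 1.33% were shared for Serpinb3a, 7.10% for Serpinb3b, 5.77% for Serpinb3c and 14.2% for Serpinb3d. For Serpinb6c 7.98% were shared, with Serpinb6d and Serpinb6e and not with Serpinb6b. The share was 0 for Serpinb2, Serpinb5, Serpinb8 and Serpinb12. The read length and the handling of reads with several alignments are not given in the sources used here. By shared sequence, counts of Serpinb3a to Serpinb3d and Serpinb6c are thus less certain than those of the other 4 members. The sum of the 4 copies is given beside the single copies. Serpinb2 shares 275 exon bases with Serpinb10 on the same strand, which makes its counts less certain in another way.

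All members but Serpinb6c lie in a serpin cluster on chromosome 1. The coordinates are those of the deposited table, and GRCm39 is the build in the submitters' processing notes. In chromosomal order the cluster holds Serpinb5 (ENSMUSG00000067006, 106788903 to 106811078, plus strand), Serpinb12 (ENSMUSG00000059956, 106862179 to 106884810, plus strand), Serpinb3a (ENSMUSG00000044594, 106973317 to 106980033, minus strand), Serpinb3d (ENSMUSG00000058017, 107005897 to 107011236, minus strand), Serpinb3b (ENSMUSG00000073602, 107081670 to 107206091, minus strand), Serpinb3c (ENSMUSG00000073601, 107198931 to 107206101, minus strand), Serpinb2 (ENSMUSG00000062345, 107439153 to 107463208, plus strand) and Serpinb8 (ENSMUSG00000026315, 107517736 to 107538214, plus strand). Serpinb6c (ENSMUSG00000052180) lies on chromosome 13 from 34063799 to 34089691 on the minus strand. All 9 are annotated as protein-coding. Exons of Serpinb3b and Serpinb3c share 35 bases on the same strand, and exons of Serpinb2 share 275 bases with Serpinb10 on the same strand. The exons of the other 6 members share 0 bases with another gene.

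The libraries were shallow, with total counts from 118858 (cKO replicate 2) to 322426 (control replicate 2). Normalised counts (CPM) are counts scaled to the TMM-adjusted library total of the tested genes, on the usual CPM scale, and the 3 counts that a count of 0 still allows (a one-sided 95% limit) correspond to 12.1 CPM and 33.7 CPM in the cKO libraries (replicates 1 and 2) and to 16.0 CPM and 9.58 CPM in those of control. Stim1 had 23 and 6 counts in the cKO libraries against 24 and 62 in control, and Stim2 had 0 and 1 against 3 and 18. All cKO CPM values of both genes lay below those of control, but Stim1 did not pass the test (edgeR adjusted p 0.671) and Stim2 was too low to be tested. By counting error alone, the 1 Stim2 count of cKO replicate 2 has a 95% Poisson interval up to 62.6 CPM. That is above both control values, 16.0 CPM and 57.5 CPM. The epidermal label was checked on 8 basal markers such as Krt5 and Krt14 and on 8 spinous markers such as Krt1 and Krt10, and all 16 had counts. Of the 10 granular layer markers 8 were tested, 3 (Flg, Hrnr and Casp14) were higher in cKO and 2 (Ivl and Tgm3) had both cKO libraries below control without passing the test. The summed level of those 10 was 10272 to 18814 CPM in cKO and 2882 to 8504 CPM in control. Without Flg it was 4889 to 9846 CPM in cKO and 2775 to 8191 CPM in control, and the groups overlapped. Of 8 sebaceous markers 6 were tested and 1 (Fabp5) was higher, with a summed level of 1403 to 3034 CPM in cKO and 816 to 878 CPM in control. Of 12 skeletal muscle markers 7 were tested and 4 (Tnnc2, Acta1, Myh4 and Pvalb) were lower. These 4 were high enough to be tested only through control, and Casp14 only through cKO. The summed level of the 12 was 44.5 to 315 CPM in cKO and 1392 to 1932 CPM in control. The summed level of the hair shaft and root sheath markers (14 of 15 matched by name) was 528 to 570 CPM in cKO and 1697 to 1734 CPM in control, with Krt27, Krt31, Krt33a, Krt33b, Krt35 and Krt73 at 0. Fibroblast markers stood apart in cKO replicate 2, at 607 CPM against 36.4 to 160 CPM in the other 3 libraries, with Pdgfra at 0. Neutrophil and macrophage markers also stood apart in that library, at 360 CPM against 56.6 to 86.2 CPM, with Csf3r, Elane and Ly6g at 0. The part of these markers in the serpin values was not tested.

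Of the 9 members, 7 had a count in any library, 5 had counts in all 4 libraries, and 3 (Serpinb5, Serpinb8 and Serpinb12) passed the filter on low counts. None of these 3 was called at an adjusted p under 0.05 in edgeR's quasi-likelihood test, where 0.848% of the 4243 genes tested were called (0.66% higher and 0.189% lower, which is 28 and 8 genes, or 26 higher and 15 lower with library totals as the only scaling). At an unadjusted p under 0.05 the count was also 0 of 3, where 8.39% of all tested genes were. DESeq2 and limma-voom called 0 of the 3 as well. At an unadjusted p under 0.05 DESeq2 had 0 and limma-voom had 1, Serpinb12. The median log2 fold change of the 3 was 0.04, against 0.01 for all genes tested, with 2 fitted above 0 and 1 below. Of the 3, only in Serpinb12 did the groups not overlap, with cKO above. Of all tested genes 38.5% showed such a separation, 18.9% with cKO above and 19.6% with cKO below. With bulk tissue, fewer cells that make a serpin and less of its RNA per cell cannot be told apart.

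**Figure D1:**
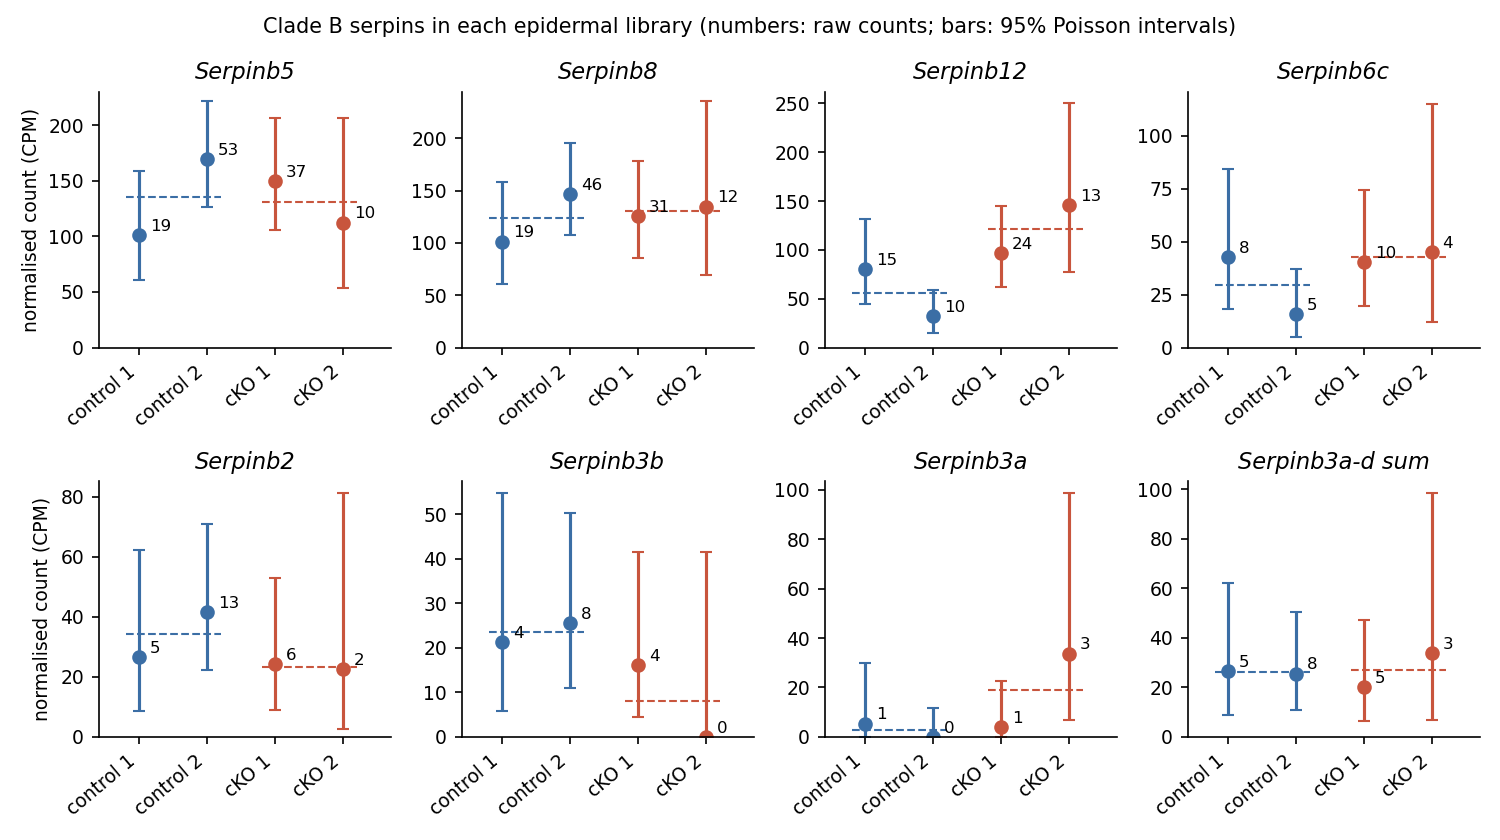
Normalised counts (CPM, y axis) of 7 serpins and of the Serpinb3a to Serpinb3d sum in the 2 control (blue) and 2 cKO (red) libraries. Points are libraries with their raw count beside them, bars are exact two-sided 95% Poisson intervals that cover counting error only and at a count of 0 reach above the one-sided limit of 3 counts, and dashed lines are group means; Serpinb12 is the panel among the first 3 in which both cKO points lie above both control points.

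Serpinb5 encodes maspin, an epithelial serpin that does not trap proteases and is studied for its part in cell adhesion. Its counts were 37 and 10 in the cKO libraries against 19 and 53 in control. These correspond to 150 CPM and 112 CPM in cKO and to 101 CPM and 169 CPM in control. The control libraries enclosed both cKO values. The group means were 131 ± 26.3 CPM (SD, n = 2) in cKO against 135 ± 48.0 CPM (SD, n = 2) in control. The log2 fold change was -0.03 (standard error 0.50, edgeR adjusted p 0.997), smaller than the spread between replicates. Its 95% interval ran from -1.10 to 1.04, a cKO to control ratio between 0.465 and 2.05. The fitted direction depended on single libraries, with -0.33 without cKO replicate 1, 0.13 without cKO replicate 2, -0.34 without control replicate 1 and 0.41 without control replicate 2.

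Serpinb8 encodes an inhibitor of the proprotein convertase furin, and loss of human SERPINB8 causes a peeling skin disorder. It had 31 and 12 counts in the cKO libraries against 19 and 46 in control. In normalised terms these were 125 CPM and 135 CPM in cKO and 101 CPM and 147 CPM in control. As with Serpinb5, both cKO values fell between the control values. The means were 130 ± 6.72 CPM (SD, n = 2) in cKO against 124 ± 32.2 CPM (SD, n = 2) in control. The log2 fold change was 0.04 (standard error 0.49, edgeR adjusted p 0.997), and its 95% interval ran from -1.02 to 1.11, a ratio between 0.492 and 2.16. With library totals as the only scaling its log2 fold change was -0.21, where the median of all genes was itself at -0.24, so that it stood 0.03 above that median.

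Serpinb12 encodes an inhibitor of trypsin-like serine proteases found in the cornified envelope. It had 24 and 13 counts in the cKO libraries against 15 and 10 in control. The normalised counts were 97.0 CPM and 146 CPM in cKO and 80.0 CPM and 31.9 CPM in control. Both cKO values lay above both control values, and the gap between the nearest libraries of the groups was smaller than the gap between the replicates of either group. The means were 122 ± 34.7 CPM (SD, n = 2) in cKO against 56.0 ± 34.0 CPM (SD, n = 2) in control, a fitted ratio of 2.18. The log2 fold change of 1.12 (standard error 0.65) did not pass the test (edgeR adjusted p 0.716, unadjusted p 0.106). Its 95% interval ran from -0.27 to 2.52, a ratio between 0.827 and 5.73. The size depended on the control libraries, with a log2 fold change of 0.57 without control replicate 2 and 1.88 without control replicate 1. Without cKO replicate 1 it was 1.40 and without cKO replicate 2 it was 0.86. The fitted value was above 0 in all 4 fits, which was nearly fixed beforehand, because both cKO values lay above both control values. By counting alone, the 95% Poisson interval of control replicate 2, 15.3 to 58.7 CPM, did not reach that of either cKO library, while that of control replicate 1, 44.8 to 132 CPM, overlapped both.

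**Figure D2:**
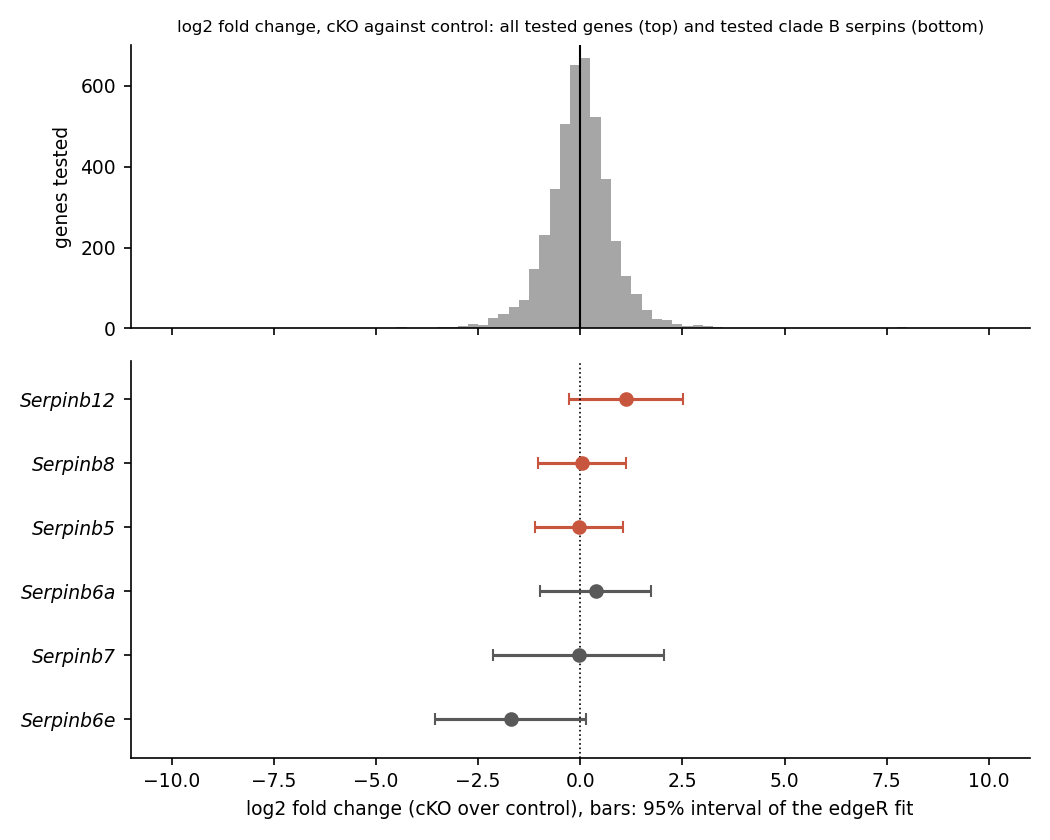
Top, histogram of the log2 fold changes (cKO over control) of the 4243 tested genes, with their median as a line. Bottom, log2 fold change with its 95% interval for the 3 tested members (red) and the 3 other tested clade B serpins (grey); all 6 intervals include 0.

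The remaining members were below the filter and are given by their counts, with values from a fit of all 17179 genes with any count. Serpinb2 encodes plasminogen activator inhibitor 2, which blocks urokinase and is crosslinked into the cornified envelope. It had 6 and 2 counts in cKO (24.3 CPM and 22.5 CPM) and 5 and 13 counts in control (26.7 CPM and 41.5 CPM). Both cKO values lay below both control values, but the nearest libraries of the groups differed by less than 1 count is worth in cKO replicate 1. In the unfiltered fit its log2 fold change was -0.61 (standard error 0.98, edgeR adjusted p 0.911), and the 95% interval from -2.53 to 1.31 was wide. Its exons share bases with Serpinb10, which had 7 and 0 counts in the cKO libraries against 4 and 1 in control.

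Serpinb6c belongs to a mouse-expanded group related to SERPINB6, an inhibitor of cathepsin G. It had 10 and 4 counts in cKO (40.4 CPM and 45.0 CPM) and 8 and 5 counts in control (42.7 CPM and 16.0 CPM). Control replicate 2 was the low library, the other 3 lay close together, and the groups overlapped. The log2 fold change in the unfiltered fit was 0.51 (standard error 0.91, edgeR adjusted p 0.911). Without control replicate 2 it was -0.09, and without control replicate 1 it was 1.29.

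The Serpinb3 group was barely detected. Serpinb3b had 4 and 0 counts in cKO (16.2 CPM and 0 CPM) and 4 and 8 counts in control (21.3 CPM and 25.5 CPM). The 0 in cKO replicate 2 allows up to 33.7 CPM, above both control values, so no difference was detectable there. Its log2 fold change in the unfiltered fit was -1.16 (standard error 1.28, edgeR adjusted p 0.911). Serpinb3a had 1 and 3 counts in the cKO libraries against 1 and 0 in control, all within the 3 counts that a count of 0 allows, so no fold is given. Serpinb3c and Serpinb3d had 0 counts in all 4 libraries. By counting error, this allows at most 9.58 CPM for each in control replicate 2, the deepest library, and 33.7 CPM in cKO replicate 2. These limits hold for counted reads only. The annotated Serpinb3d transcript has 26 bases after its coding region, against 428 or 429 in the other copies. Reads from beyond an annotated end would not be counted.

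Summed over the 4 copies, the Serpinb3 group had 5 and 3 counts in cKO (20.2 CPM and 33.7 CPM) and 5 and 8 counts in control (26.7 CPM and 25.5 CPM). The cKO libraries enclosed the control libraries. With the 4 rows counted as 1 feature, the log2 fold change in the unfiltered fit was -0.13 (standard error 1.04, edgeR adjusted p 0.980) and a 95% interval from -2.17 to 1.92. All 8 counts of control replicate 2 were Serpinb3b, while all 3 counts of cKO replicate 2 were Serpinb3a. In cKO replicate 1, Serpinb3b took 80.0% of 5 counts (95% Wilson interval 37.6% to 96.4%), and the interval of the 0% in cKO replicate 2 reached 56.2%, so the intervals of the cKO libraries overlapped. In control replicate 2 the interval of Serpinb3b was 67.6% to 100%, which does not overlap that of cKO replicate 2, while control replicate 1 had the same split as cKO replicate 1.

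**Figure D3:**
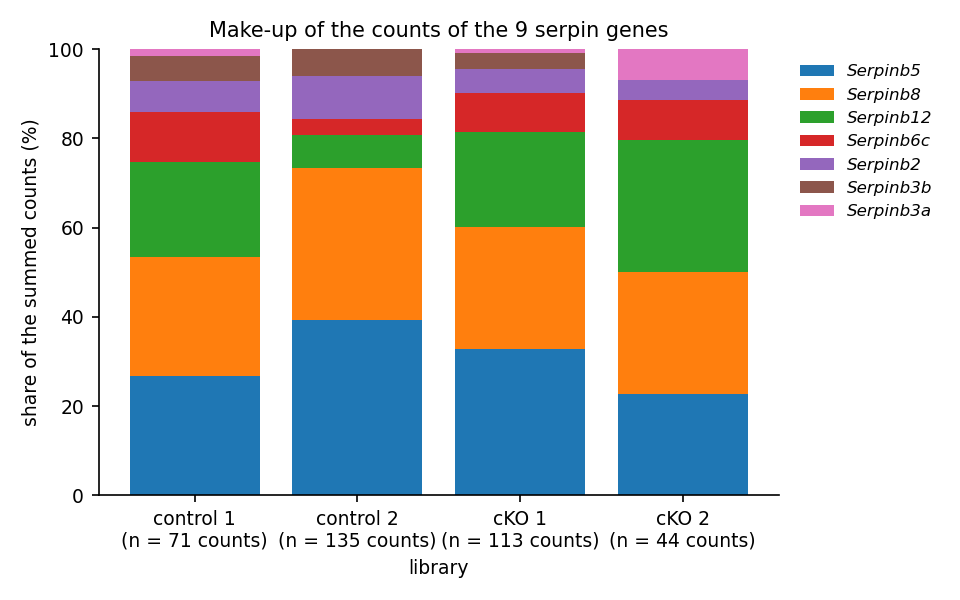
Share (%, y axis) of each serpin in the summed raw counts of the 9 members in each library (x axis, with the summed count). Serpinb3c and Serpinb3d had no counts; Serpinb12 took 7.41% in control replicate 2 and 21.1% to 29.5% in the other 3 libraries.

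Together the 9 members had 113 and 44 counts in the cKO libraries against 71 and 135 in control, or 457 CPM and 495 CPM in cKO and 379 CPM and 431 CPM in control. Within these sums the share of Serpinb12 was 21.2% and 29.5% in cKO and 21.1% and 7.41% in control. The 95% Wilson interval of control replicate 2, 4.07% to 13.1%, lay below the intervals of the other 3 libraries, of which the lowest bound was 13.2%. The low share was thus that of 1 control library, and the other control library had nearly the share of cKO replicate 1. Serpinb5 took 32.7% and 22.7% in cKO and 26.8% and 39.3% in control, and all 4 of its intervals overlapped. Serpinb8 took 27.4% and 27.3% in cKO and 26.8% and 34.1% in control. These are shares of counts in 1 library and are not a ranking of the genes' levels.

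By the distance between centred log2 CPM values over the 4 libraries, the tested genes most like Serpinb5 included 5830417I10Rik (distance 0.0930) and Strn (0.133). Those most like Serpinb8 were Atp6v0d1 (0.0453), Brd1 (0.0765) and Arf1 (0.103). Those most like the Serpinb3a to Serpinb3d sum were Kdm2a (0.0474), Akr1a1 (0.0519) and Rps4x-ps (0.0544). That sum is very shallow, and its 95% Poisson interval in cKO replicate 2 spanned 6.95 to 98.5 CPM. Counting error alone could therefore change which genes lie nearest to it. Each list holds the closest of 4243 tested genes over only 4 libraries. Whether the listed genes vary together with the serpins was not tested.

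The 19 other clade B serpins gave the family background. Of these, 8 had a count in any library, and 3 (Serpinb6a, Serpinb7 and Serpinb6e) were tested, with 0 called and a median log2 fold change of -0.03. The members thus made up 65.3% and 80.0% of all clade B counts in cKO and 61.7% and 63.7% in control, with overlapping 95% Wilson intervals. Serpinb13 and all 8 listed Serpinb9 genes had no counts.

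Serpinb7, a serpin whose loss in humans causes a palmoplantar keratosis, was at 1 count in a library of each group, under the 3 counts that a count of 0 allows, so no fold between replicates is given. It had 26 and 1 counts in cKO (105 CPM and 11.2 CPM) and 1 and 39 counts in control (5.34 CPM and 125 CPM). The replicates of each group thus lay far apart, and the groups overlapped. The log2 fold change of Serpinb7 was -0.03 with a standard error of 0.97 (edgeR adjusted p 0.998). Serpinb6e had 4 and 3 counts in cKO (16.2 CPM and 33.7 CPM) and 20 and 14 in control (107 CPM and 44.7 CPM), with both cKO values below both control values. Its log2 fold change of -1.71 (standard error 0.86) did not pass the test (edgeR adjusted p 0.658). Serpinb6e transcripts share exact stretches with the end of Serpinb6c, so the counts of Serpinb6e are uncertain too. Serpinb6a, at 93.0 CPM and 56.2 CPM in cKO and 58.7 CPM and 60.7 CPM in control, had a log2 fold change of 0.38 (standard error 0.63, edgeR adjusted p 0.968). Its exons share 1587 bases with genes on the opposite strand, and the strand setting of the counting is not given, so its counts are uncertain.

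**Figure D4:**
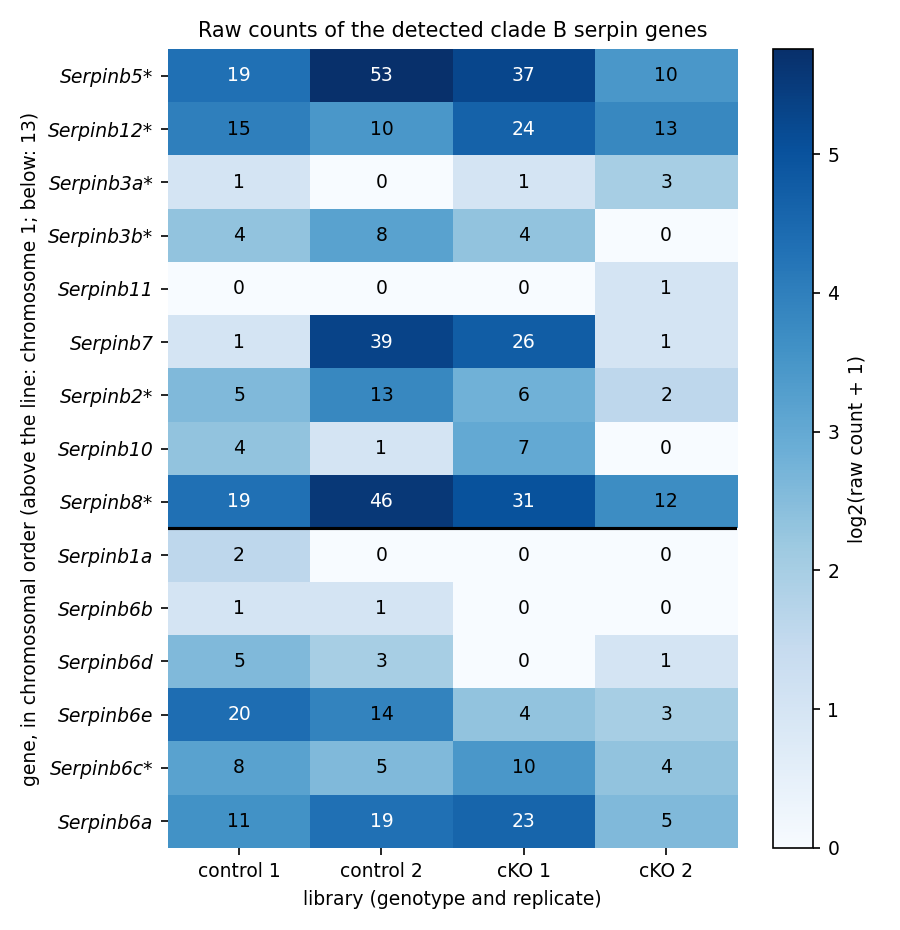
Raw counts of the 15 clade B serpin genes with any count (rows, in chromosomal order, members marked with an asterisk) in the 4 libraries (columns); shading is log2 of the count plus 1. Serpinb7 is at 1 count in control 1 and cKO 2 and at 39 and 26 in the other libraries, whereas Serpinb5, Serpinb8 and Serpinb12 are at 10 or more counts in every library.

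Of 24 listed serpins of other clades, 14 had a count, 2 were tested and 0 were called. Their summed level was 396 CPM and 180 CPM in cKO and 427 CPM and 798 CPM in control. The 28 clade B serpins summed to 700 CPM and 618 CPM in cKO and to 614 CPM and 677 CPM in control. Serpina12, the adipokine vaspin, had 58 and 5 counts in the cKO libraries against 38 and 198 in control, and its log2 fold change was -1.41 (standard error 0.63, edgeR adjusted p 0.560). The row of Serpina3h that is annotated as a long non-coding RNA had 25 and 1 counts in the cKO libraries against 11 and 28 in control (adjusted p 0.992). Serpina3b was at 0 in cKO and had 8 counts (42.7 CPM) and 6 counts (19.2 CPM) in control, which lie on either side of the 33.7 CPM that a count of 0 allows in cKO replicate 2.

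The proteases that clade B serpins can meet were examined as background lists. These lists were chosen with earlier results of these data known. Of 17 cathepsins, calpains and related proteases, 7 were tested, 1 was called higher and 0 lower, and the median log2 fold change was 1.29 (0.01 for all genes tested). In 5 of the 7 both cKO libraries lay above both control libraries, as in 18.9% of all tested genes. The called gene was Casp14, the caspase of the cornifying layers, which is also among the granular markers. It had 48 and 11 counts in the cKO libraries against 0 and 2 in control (edgeR adjusted p 0.0123). Casp14 passed the filter on low counts only through cKO, so it could only come out higher. It is included in the 5 and in the median. Ctsl, the lysosomal cysteine protease cathepsin L, had 75 and 39 counts in cKO (303 CPM and 438 CPM) and 9 and 52 in control (48.0 CPM and 166 CPM). Its log2 fold change of 1.71 (standard error 0.55) did not pass the test (adjusted p 0.287), although the groups did not overlap. Ctsd and Ctsb, the lysosomal cathepsins D and B, had log2 fold changes of 0.91 and 0.48 (adjusted p 0.632 and 0.928).

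Of 28 serine proteases and plasminogen activation genes, 16 had a count, 11 were tested, 1 was called higher and 0 lower, with a median log2 fold change of 1.00 and with cKO above control without overlap in 7 of the 11. Over all tested genes 0.66% were called higher and 18.9% had cKO above without overlap. The sebaceous marker sum was also higher in both cKO libraries, and so was the granular marker sum, the latter only with Flg included. The part of these markers in the protease values was not tested. The called gene was the kallikrein Klk6, with 61 and 32 counts in the cKO libraries and none in control (edgeR adjusted p 0.000444). Klk6 passed the filter on low counts only through cKO, so it could only come out higher. It is included in the 7 and in the median. Klk7, a kallikrein that cuts the links between corneocytes, was at 1852 CPM and 2147 CPM in cKO and at 293 CPM and 1574 CPM in control. Both cKO values of Klk7 lay above control, but its log2 fold change of 1.09 (standard error 0.61) did not pass the test (adjusted p 0.716). Tmprss4, a membrane-bound serine protease, was at 117 CPM and 124 CPM in cKO, between its control values of 74.7 CPM and 182 CPM (adjusted p 0.992). Plau, Plat and Plaur, which encode urokinase, tissue plasminogen activator and the urokinase receptor, had 0 counts in all 4 libraries, as did Elane, Ctsg, Prtn3 and Gzmb, the granule proteases of neutrophils and cytotoxic cells. Plau and Plat products are the proteases best known for Serpinb2, and no level of either can be set against it here.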

How the data were processed

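Dorsal epidermis was separated with 3.8% sodium thiocyanate for 20 min and RNA was sequenced with a 3' kit, per the labels' protocols. The authors deposited raw counts per gene for 4 libraries, and the submitters' processing notes name STAR 2.7.10a, featureCounts 2.0.1 and GRCm39. Collapsing of molecular identifiers, the strand setting and the handling of reads with several alignments are not given in the sources used here. In the deposited table all 9 members start elsewhere than in GRCm38, on which the reference tables rest, so gene positions were taken from the deposited table only. The printed sequences, coding identities and shared windows come from GENCODE M21 transcripts, which also rest on GRCm38.

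Low genes were removed by filterByExpr (count minimum 10, total minimum 15), and the rest were scaled with TMM and tested for cKO against control in edgeR 4.0.16 (glmQLFit at its defaults, glmQLFTest, Benjamini-Hochberg over all genes tested, threshold 0.05); 95% intervals are the log2 fold change plus or minus its standard error times the t quantile. The fit was also run on simulated data, with log2 changes larger than any fitted for the members and with a single common dispersion. Changes as small as those of the members were not tested there. Members below the filter come from a fit without it. Alternatives were run in edgeR, DESeq2 1.42.0 and limma 3.58.1. Coding identities came from GENCODE M21 transcripts aligned with Biopython 1.88. The labels do not say whether a replicate number marks a shared animal or batch, so the numbers were not used as pairs. Poisson and Wilson intervals and the limits of a count of 0 cover counting error only. The members and lists were chosen with earlier results of these data known. Named genes are all members, Stim1 and Stim2, and, from each protease or serpin list, called genes and the 3 with the highest mean CPM. Likeness was computed for the sum of the Serpinb3 copies and the 2 tested members with the highest mean CPM (log2 CPM, prior count 2). A gene that this rule names is not reported here.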

Additional observations from a re-analysis of the deposited data

How the results depend on the processing

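None of the tested members was called under any alternative, and the lowest adjusted p was 0.453 (Serpinb12 without cKO replicate 1). Serpinb12 stayed above 0 in all 17 alternatives (0.57 to 1.88), and Serpinb2 and Serpinb3b stayed below 0 in 15 and 14. No value was given for Serpinb3b without cKO replicate 1, where cKO is at 0. These constant signs were nearly fixed beforehand, because in each of these genes the cKO values lay on 1 side of both control values. They are therefore no measure of how firm the differences are. The direction of the others changed between alternatives. Serpinb5 turned to 0.012 with the replicate block and 0.033 with limma-voom, and ran from -0.34 to 0.41 with single libraries left out. Serpinb8 turned to -0.21 with library totals, -0.037 with low genes kept and -0.0027 with genes filtered at a mean of 10 CPM. Measured from the median of all genes in the same fit, these values were 0.028, 0.11 and 0.040, against 0.036 in the main fit. With single libraries left out Serpinb8 ran from -0.18 to 0.37. Without control replicate 1 it was -0.21 when measured from the median of that fit. With libraries left out, Serpinb6c ran from -0.094 to 1.29, the Serpinb3 sum from -0.43 to 0.11, Serpinb12 from 0.57 to 1.88, Serpinb2 from -0.88 to -0.25 and Serpinb3b from -1.29 to -0.62. The cause of these turns was not tested.

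Over all genes, the 28 higher and 8 lower became 16 and 0 at a threshold of 0.01, 43 and 17 at 0.1, 49 and 26 with low genes kept, 12 and 3 with limma-voom and 16 and 1 with the replicate block. The lower genes were 15 with library totals and also 15 when genes were filtered at a mean of 10 CPM. With single libraries left out, the higher genes were 34 to 59 and the lower genes 8 to 34. Deviations of same-numbered libraries were only weakly opposed (correlation -0.20 across genes). A crossed replicate block, chosen after seeing the data, gave 90 and 57. Where a library was left out, the lone one of its group was assumed to vary like the other group. Depth limits all members: Serpinb3a, Serpinb3c and Serpinb3d could not be sized.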
